A study of Rattus norvegicus with 16 samples.

Results

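Hoxc8, Hoxc9, Hoxc10, Hoxd8, Hoxd9 and Hoxd10 are 6 homeobox genes of the HoxC and HoxD clusters, and they were followed through single disc cells of the rat lumbar spine. The 6 genes are 6 of the 14930 genes listed in the deposited tables. They were chosen because, in earlier work on these values, Hox genes of paralogue groups 8 to 10 differed between punctured and unpunctured discs. Their LDP against CON values are therefore a description and carry no test here.

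Male Sprague-Dawley rats (8 in all, 8 weeks old at surgery) had the L4-5 and L5-6 lumbar discs stabbed once with a needle, and these discs are called LDP. The L2-3 and L3-4 discs of the same rats were left unpunctured and are called CON. Rats 1 to 4 were examined 2 weeks and rats 5 to 8 8 weeks after surgery. The 2 LDP discs of a rat were pooled into 1 library and the 2 CON discs into another, which gave 4 CON and 4 LDP libraries at each time and 16 in all. All rats had the same operation, the labels name no altered allele, and no unoperated rat entered. Because every LDP disc lay below every CON disc, puncture and spinal level cannot be told apart in any LDP against CON value. The rats at 8 weeks were also older than those at 2 weeks, so age and time after surgery cannot be told apart either.

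Hox genes encode transcription factors that bind DNA through a homeodomain and give cells along the trunk their position. They lie in 4 clusters, and the order of the genes within a cluster follows the order in which they are used from head to tail, so that genes of higher number are used further towards the tail. Skeletal and connective tissue cells of the adult keep part of this pattern. Loss of Hoxc8 in mice alters vertebrae at the border of thorax and loin, paralogue group 9 genes act on the ribs and the lower trunk, and paralogue group 10 genes keep lumbar vertebrae free of ribs. In the reference annotation the neighbours of the HoxD members run Hoxd11, Hoxd10, Hoxd9, Hoxd8, Hoxd4 on chromosome 3, and those of the HoxC members run Hoxc11, Hoxc10, Hoxc9, Hoxc8, Hoxc6 on chromosome 7.

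The 16 libraries held 149272 cells, 2221 to 15918 per library, with a median depth of 3861 to 8092 counted molecules (UMIs) per cell and totals of 17759809 to 85025591 UMIs. A pair of libraries shared a median of 19 cell barcodes and at most 75. The authors' classes were IVD (disc cells), endothelial, myeloid and lymphoid, and at 2 weeks the IVD class was divided into cells of the nucleus pulposus (NP), the gel-like core, and of the annulus fibrosus around it, inner (IAF) and outer (OAF). Markers were highest in the class they name in 20 of 20 gene and group pairs for IVD, 15 of 15 for endothelial, 20 of 20 for myeloid and 20 of 24 for lymphoid cells. For the subclusters the number was 12 of 12 for OAF and 7 of 10 for NP. Of the 6 endothelial markers 5 were listed. Samples were 1 per disc pool of a rat, so the spread given is that between rats.

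One library stood apart for the Hox genes and has to be known before the values are read. In the CON library of rat 1 the IVD cells held 4.77 CPM of Hoxd10 (counts scaled to 1000000 per cell, averaged over cells), against 0.278 to 0.743 in the CON libraries of rats 2 to 4 and 6.02 to 11.7 in the 4 LDP libraries. Its Hoxd9 level of 23.7 CPM lay above the 13.3 to 16.5 CPM of these other CON libraries, and its Hoxc8 level of 19.1 CPM lay below their 27.6 to 32.8 CPM. It shared 36 barcodes (0.413% of the smaller library) with the LDP library of the same rat, which is within the range of other pairs. Some differences at 2 weeks are therefore also given without rat 1.

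How often genes of any kind separated the discs sets the scale for the members, which were picked for it. A gene entered the comparisons across genes when its mean level reached 5 CPM in at least 4 of the 16 libraries. In the IVD class 8355 genes did, among them 5 members but not Hoxd8. Hoxd10 passed through its LDP libraries alone and so had to differ. Of the 8355 genes, 3.05% at 2 weeks and 3.04% at 8 weeks had all LDP libraries above all CON libraries, and Hoxd9 and Hoxd10 were among them at both times. The share with all LDP libraries below all CON libraries was 4.2% at 2 weeks, with Hoxc8 among them, and 11% at 8 weeks, with Hoxc8 and Hoxc9 among them. Higher in LDP in 4 of 4 rats were 9.32% and 8.98% of genes, and lower in 4 of 4 were 13.6% and 25.8%, at 2 and 8 weeks.

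HoxC members in disc cells. Hoxc8 was lower in LDP than in CON IVD cells in every rat at both times. Its mean level per cell in CON at 2 weeks was 19.1, 27.6, 30.5 and 32.8 CPM in rats 1 to 4, and in LDP it was 8.26, 18.4, 16.6 and 13.5 CPM. At 8 weeks CON rats 5 to 8 held 41.6, 51.2, 39.8 and 35.0 CPM and LDP held 14.9, 18.8, 14.3 and 17.0 CPM. The lowest CON library lay above the highest LDP library at both times, closely so at 2 weeks, where the CON library of rat 1 and the LDP library of rat 2 were neighbours. The ratio of group means was 1.94-fold lower in LDP at 2 weeks and 2.58-fold lower at 8 weeks, and the mean paired difference on the log2(CPM + 1) scale was -0.94 ± 0.30 (SD, n = 4 rats) and -1.31 ± 0.21 (SD, n = 4).

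Hoxc9, the neighbour of Hoxc8, was lower in LDP in 3 of 4 rats at 2 weeks and in 4 of 4 at 8 weeks. CON held 25.0, 24.7, 27.5 and 31.0 CPM and LDP 15.2, 27.1, 21.2 and 24.8 CPM at 2 weeks, so the groups overlapped. At 8 weeks CON held 25.6, 25.7, 28.2 and 25.7 CPM and LDP 17.5, 15.5, 19.5 and 22.0 CPM, with no overlap. The mean log2 difference was -0.31 ± 0.33 (SD, n = 4) at 2 weeks, no larger than its spread, or -0.18 without rat 1, and -0.48 ± 0.20 (SD, n = 4) at 8 weeks.

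Hoxc10, which lies on the tail side of Hoxc9 in its cluster, did not separate the discs. In rats 1 to 4 CON held 14.9, 13.5, 13.3 and 16.7 CPM and LDP 10.4, 19.4, 13.3 and 15.2 CPM. In rats 5 to 8 CON held 12.7, 12.4, 10.3 and 10.7 CPM and LDP 8.52, 10.6, 9.38 and 12.2 CPM. Its log2 differences of -0.03 ± 0.41 (SD, n = 4) and -0.17 ± 0.29 (SD, n = 4) lay within the spread between rats, and the 2-week value turned to 0.12 without rat 1. Among the HoxC members the mean difference therefore grew in size from Hoxc10 through Hoxc9 to Hoxc8 at both times. The Hoxc9 value at 2 weeks lay within its spread.

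HoxD members in disc cells. Hoxd10, a paralogue of Hoxc10, showed the largest ratio of the 6 genes. At 2 weeks CON IVD cells held 4.77, 0.609, 0.278 and 0.743 CPM and LDP cells 11.7, 9.48, 6.02 and 8.12 CPM in rats 1 to 4. At 8 weeks CON held 0.997, 0.598, 0.751 and 0.596 CPM and LDP 12.6, 10.2, 7.95 and 12.9 CPM. The groups did not overlap at either time, and rat 1 was the only rat whose CON library exceeded 1 CPM. The ratio of means was 5.52-fold higher in LDP at 2 weeks, or 14.5-fold without rat 1, and 14.8-fold at 8 weeks. The mean log2 difference was 2.17 ± 0.70 (SD, n = 4) at 2 weeks, 2.52 without rat 1, and 2.76 ± 0.31 (SD, n = 4) at 8 weeks. After each cell was thinned to 1000 UMIs, a Hoxd10 UMI was found in 0.149% of CON and 0.835% of LDP IVD cells at 2 weeks and in 0.0691% and 0.978% at 8 weeks, and from all UMIs these shares were 0.642%, 4.33%, 0.308% and 5.08%. The CON mean at 2 weeks rested on rat 1, which held 0.435% at 1000 UMIs against 0.0278 to 0.0728% in rats 2 to 4.

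Hoxd9, next to Hoxd10, was higher in LDP in 8 of 8 rats. CON held 23.7, 16.3, 13.3 and 16.5 CPM and LDP 35.7, 33.3, 26.1 and 32.2 CPM at 2 weeks. At 8 weeks CON held 16.2, 13.6, 13.8 and 12.8 CPM and LDP 29.4, 29.6, 20.9 and 28.3 CPM. The groups were apart at both times, with the LDP library of rat 7 nearest to CON at 8 weeks. The ratio of means was 1.83-fold at 2 weeks and 1.92-fold at 8 weeks, and the log2 difference was 0.85 ± 0.19 (SD, n = 4) and 0.89 ± 0.24 (SD, n = 4).

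Hoxd8, on the head side of Hoxd9, was low at both times. It had the fewest UMIs of the 6 genes in LDP IVD cells, whereas in CON Hoxd10 had fewer (282 against 329 at 2 weeks and 91 against 322 at 8 weeks). Hoxd8 held 1.57 to 2.04 CPM in CON and 1.38 to 2.52 CPM in LDP at 2 weeks, and 1.72 to 2.75 CPM in CON and 1.83 to 2.67 CPM in LDP at 8 weeks. CON and LDP overlapped at both times, and the log2 differences of 0.11 ± 0.23 (SD, n = 4) and 0.06 ± 0.23 (SD, n = 4) were smaller than their spread, with 0.16 at 2 weeks without rat 1. In the HoxD cluster the difference was thus largest at Hoxd10 and smaller at each step through Hoxd9 to Hoxd8, while in HoxC it was largest at Hoxc8 and of the other sign. Over all 8355 genes the median log2 difference was -0.08 at 2 weeks and -0.14 at 8 weeks, smaller in size than that of Hoxc8, Hoxd9 and Hoxd10 but close to that of Hoxc10 at 8 weeks.

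**Figure D1:**
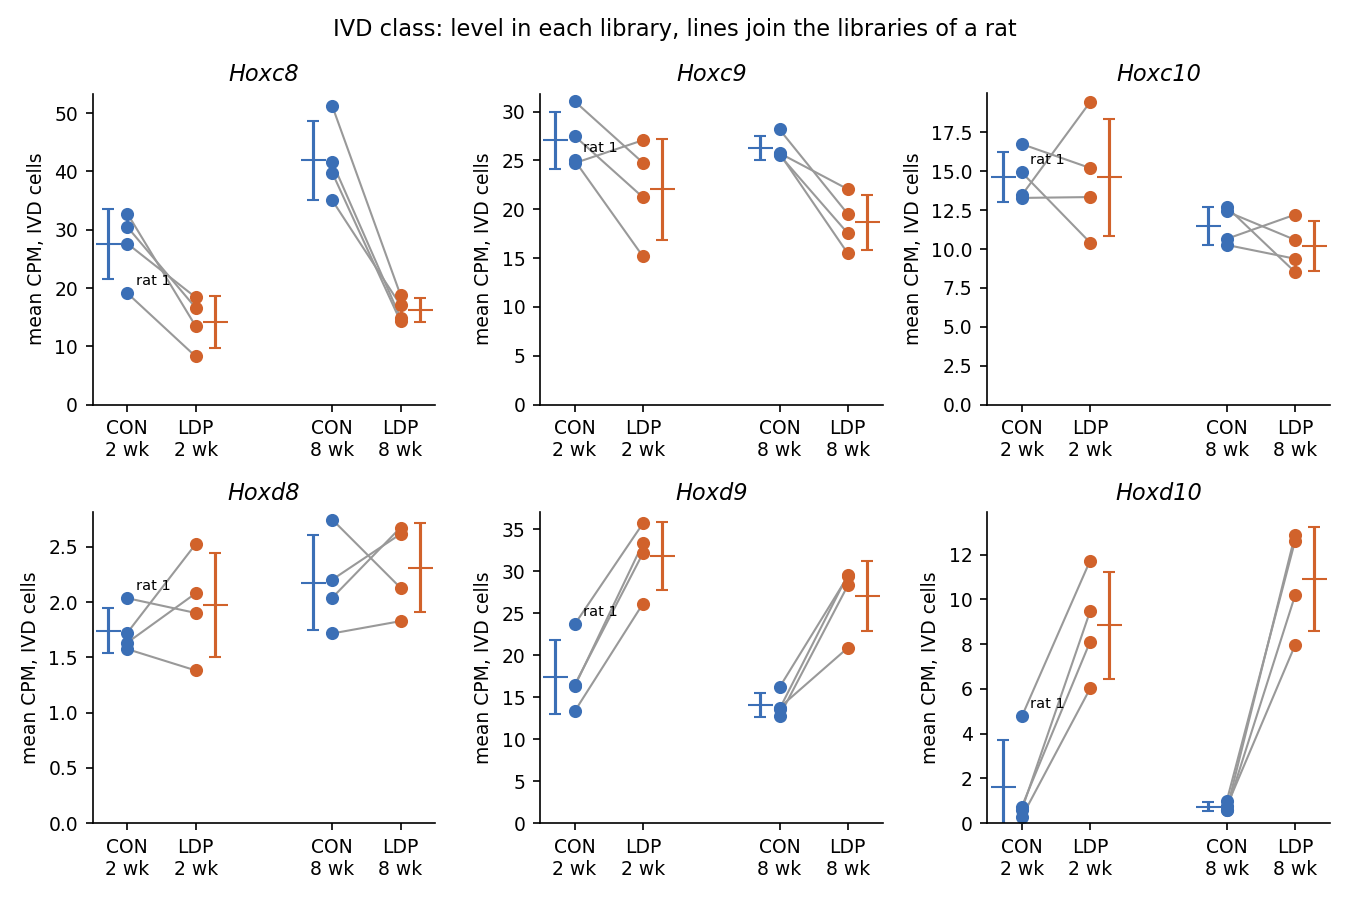
Mean CPM per cell in IVD cells for each of the 6 Hox genes, CON and LDP, at 2 and 8 weeks, with 1 point per library, lines joining the 2 libraries of a rat, and mean and SD beside them (the SD bar of Hoxd10 in CON at 2 weeks reaches below 0). LDP points lay below CON for Hoxc8 and above CON for Hoxd9 and Hoxd10 in every rat, and the Hoxd10 point of CON rat 1 at 4.77 CPM stood above the other CON points.

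Several marker lists were summed in the same IVD cells. All 6 OAF markers were listed, and their summed level ran from 8681 to 15017 CPM in CON and 6663 to 13307 CPM in LDP at 2 weeks, and from 2388 to 4268 CPM in CON and 1012 to 2751 CPM in LDP at 8 weeks. The 4 tendon and ligament markers summed to 194 to 316 CPM in CON and 127 to 152 CPM in LDP at 8 weeks, with overlapping ranges at 2 weeks. The 7 listed notochord genes summed to 362 to 411 CPM in CON and 502 to 515 CPM in LDP at 8 weeks. Most of both sums was Cd24, with 342 ± 28.2 CPM in CON and 464 ± 10.1 CPM in LDP (SD, n = 4). The 5 listed endothelial markers summed to 94.6 to 114 CPM in CON and 58.8 to 88.4 CPM in LDP at 8 weeks. At 2 weeks the 3 listed Schwann cell markers summed to 11.8 to 16.02 CPM in CON and 18.7 to 92.6 CPM in LDP. The part of these markers in the Hox differences was not tested. None of these lists had a gene at 0 in the IVD class.

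The HoxD promoters are shown because in the IVD class the groups were apart for Hoxd9 and Hoxd10 and overlapped for Hoxd8 next to them. RefSeq promoters, 250 bases before to 50 after the gene start in assembly GRCr8, were given for 3 of the 6 members, all on the + strand. They are Hoxd10 at chr3:80001697-80001996, Hoxd9 at chr3:80007756-80008055 and Hoxd8 at chr3:80014973-80015272. The deposited values were made on the rn6 build, so these positions belong to GRCr8 only. Capitals mark the letters CACGTG, the palindromic E-box, which reads the same on both strands.
Hoxd10: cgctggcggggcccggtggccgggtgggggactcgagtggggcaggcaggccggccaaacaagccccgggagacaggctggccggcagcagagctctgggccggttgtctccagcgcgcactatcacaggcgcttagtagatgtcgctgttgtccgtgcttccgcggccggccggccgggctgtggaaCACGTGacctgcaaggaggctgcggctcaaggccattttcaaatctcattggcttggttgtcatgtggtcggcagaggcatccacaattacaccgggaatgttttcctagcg
Hoxd9: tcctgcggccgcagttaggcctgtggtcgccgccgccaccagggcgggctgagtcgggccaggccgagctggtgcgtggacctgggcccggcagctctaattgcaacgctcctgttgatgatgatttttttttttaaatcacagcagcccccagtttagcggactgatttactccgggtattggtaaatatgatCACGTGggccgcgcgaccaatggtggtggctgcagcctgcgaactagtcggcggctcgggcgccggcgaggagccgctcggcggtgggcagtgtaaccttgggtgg
Hoxd8: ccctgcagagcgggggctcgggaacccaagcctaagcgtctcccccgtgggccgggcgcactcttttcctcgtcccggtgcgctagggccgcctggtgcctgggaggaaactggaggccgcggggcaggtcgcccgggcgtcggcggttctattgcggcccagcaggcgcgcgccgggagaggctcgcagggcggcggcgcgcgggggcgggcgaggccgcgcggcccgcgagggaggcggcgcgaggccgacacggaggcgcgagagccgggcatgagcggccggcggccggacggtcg
The E-box letters began 62 bases before the start of Hoxd10 and 56 bases before that of Hoxd9, and were not in the Hoxd8 window. They occurred in 2148 of 33469 promoters of this length (6.42%). CCAAT, searched on both strands as were all motifs, was found at 1 place in Hoxd10 and at 2 places in Hoxd9 and occurred in 37.5% of promoters. The GC box GGGCGG was found at 1 place in Hoxd9 and 2 places in Hoxd8 (33.1% of promoters). Neither TATAAA (14.2%) nor TGATTNAT (3.18%), a sequence bound by Hox proteins together with their Pbx partners, was in any of the 3 windows, and no match overlapped another. The windows held 24 CpG for Hoxd10, 27 for Hoxd9 and 49 for Hoxd8, the last above 99.1% of promoters. A match of letters is a description and no site of binding.

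The balance of HoxC and HoxD within a library. Because the members moved in opposite directions, the UMIs of paired members can be set against each other within 1 library, where depth cancels. Of the UMIs of Hoxc8 and Hoxd10 together in IVD cells, Hoxd10 made up 18.4%, 2.40%, 0.888% and 2.41% in CON rats 1 to 4 and 58.1%, 34.9%, 27.3% and 41.9% in LDP. In rats 5 to 8 it made up 2.17%, 1.03%, 1.37% and 1.40% in CON and 44.4%, 35.3%, 35.4% and 40.4% in LDP. Rat 1 was the highest of the 2-week rats in both its libraries. The share in its CON library (95% Clopper-Pearson interval 16.1 to 20.9%, 1045 UMIs, counting error only) did not reach that of the lowest LDP library, rat 3 (25.0 to 29.7%, 1433 UMIs).

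Group 9 showed the same order with a smaller step. Hoxd9 made up 40.3 ± 8.15% of Hoxc9 and Hoxd9 UMIs in CON and 60.9 ± 7.08% in LDP at 2 weeks, and 36.3 ± 3.51% and 60.2 ± 5.50% at 8 weeks (SD, n = 4 each). Single libraries ran from 32.1 to 51.1% in CON and from 56.3 to 71.3% in LDP at 2 weeks. For group 10 Hoxd10 made up 8.99 ± 10.2% of Hoxc10 and Hoxd10 UMIs in CON and 40.8 ± 10.1% in LDP at 2 weeks, and 5.52 ± 1.43% and 50.8 ± 6.23% at 8 weeks. The CON libraries at 2 weeks held 24.2% in rat 1 and 4.67%, 2.19% and 4.90% in rats 2 to 4. The 3 HoxD members together made up 24.0 ± 8.01% of the UMIs of all 6 in CON and 48.2 ± 8.63% in LDP at 2 weeks, and 18.5 ± 1.35% and 47.8 ± 3.67% at 8 weeks. In all 4 shares the CON and LDP libraries were apart at both times. These shares reuse the values by which the members were picked, so their separation is no further support for the differences above. No shares of other gene pairs were set beside them.

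**Figure D2:**
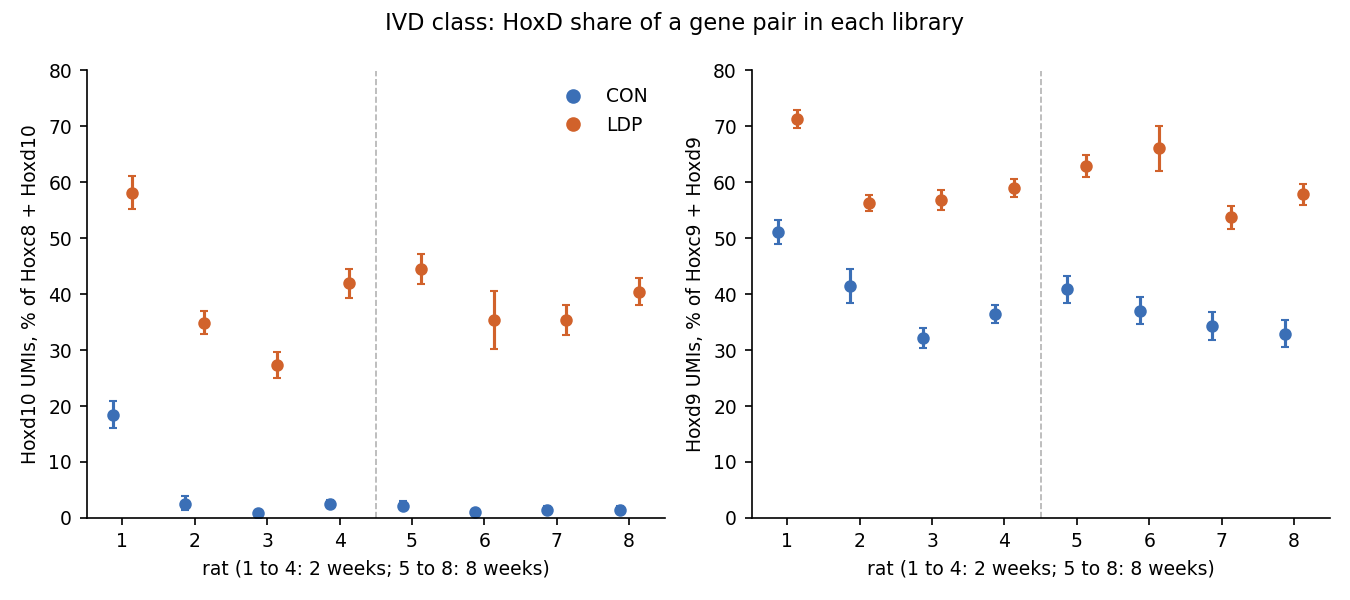
Percent of the UMIs of Hoxc8 and Hoxd10 that were Hoxd10 (left) and of Hoxc9 and Hoxd9 that were Hoxd9 (right) in IVD cells, by rat, 1 point per library, with error bars for the 95% Clopper-Pearson interval. Hoxd10 took 27.3 to 58.1% of Hoxc8 and Hoxd10 UMIs in the 8 LDP libraries and 0.888 to 2.41% in the CON libraries other than that of rat 1, which held 18.4%.

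Which disc cells carried the genes. The authors named the OAF subcluster for the outer fibrous ring by its marker genes, and no region was dissected. At 2 weeks OAF had the highest level of the 3 subclusters in 8 of 8 libraries for each member except Hoxd8, where it did in 7 of 8. The order was the same in the share of cells with a UMI at 1000 UMIs per cell. Over the 8 libraries the ratio of mean OAF to mean NP level was 7.09 for Hoxc10, 5.36 for Hoxd10, 3.12 for Hoxc9, 2.53 for Hoxd8, 2.21 for Hoxc8 and 1.81 for Hoxd9. The ratio was larger for the group 10 genes than for the other members in CON (6.97 and 5.77) and in LDP (7.20 and 5.30) alike. The order of the other 4 was not the same in both, as Hoxd8 had 3.51 in CON, above Hoxc9 at 3.15, and 1.86 in LDP, below Hoxd9 at 1.89. NP and IAF were close: the IAF level was below the NP level in 8 of 8 libraries for Hoxc8 and above it in 6 of 8 for Hoxd10. The subclusters were drawn by the authors from the same cells and genes, so these levels are a description.

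Hoxc10 was the most uneven HoxC member. OAF held 53.4, 62.1, 41.4 and 68.1 CPM in CON and 58.8, 66.2, 67.1 and 51.4 CPM in LDP, whereas NP held 6.51 to 10.3 CPM in CON and 5.92 to 10.3 CPM in LDP. No NP or IAF library reached the lowest OAF library. OAF made up 11.3% of the IVD cells in CON and 12.3% in LDP but held 38.1% and 40.8% of the Hoxc10 UMIs of the class. For Hoxd10 the OAF part was 35.1% in CON and 34.6% in LDP, and for Hoxd9 it was 15.5% and 16.6%.

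Hoxd10 was higher in LDP in each of the 3 subclusters. In OAF it held 13.1, 3.71, 0.642 and 2.54 CPM in CON rats 1 to 4 and 51.0, 28.9, 19.8 and 24.0 CPM in LDP. In NP it held 2.64, 0.162, 0.237 and 0.434 CPM in CON and 7.45, 5.56, 4.18 and 6.13 CPM in LDP. In IAF it held 3.84, 0, 0.244 and 0.732 CPM in CON, where the 0 of rat 2 is 0 UMIs in 574 cells and allows up to 0.523% of cells with a UMI, and 11.6, 5.77, 4.95 and 4.51 CPM in LDP. CON and LDP were apart in all 3 subclusters, with CON rat 1 the highest CON library in each. The share of all genes with no overlap was not taken within a subcluster. How unusual such a separation is there, for this or any other member, is therefore not known. The log2 difference was 2.76 ± 0.73 in OAF, 2.02 ± 0.57 in NP and 2.02 ± 0.62 in IAF (SD, n = 4 each), and 3.05, 2.29 and 2.23 without rat 1. The ratio of LDP to CON means was 6.18 in OAF, 6.73 in NP and 5.57 in IAF, and 10.5, 19.1 and 15.6 without rat 1. The log2(CPM + 1) scale understates the change where CON levels are low, as in NP and IAF. Which subcluster had the largest difference therefore depended on the scale.

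The OAF cells of LDP discs also carried markers of other cells. Schwann cell markers summed to 2.28 to 5.96 CPM in CON OAF and 89.6 to 623 CPM in LDP OAF, and 4 listed pericyte and smooth muscle markers to 8.85 to 25.6 and 192 to 515 CPM. In NP the Schwann cell markers held 10.2 to 18.6 CPM in CON and 3.49 to 15.0 CPM in LDP, and the pericyte and smooth muscle markers 11.7 to 14.4 and 7.79 to 19.96 CPM. Their part in the OAF differences was not tested. In IAF endothelial markers (75.2 to 457 CPM in CON, 35.1 to 64.6 CPM in LDP), OAF markers (4080 to 9751 and 2084 to 2900 CPM) and tendon and ligament markers (167 to 309 and 111 to 160 CPM) were apart, and their part was not tested either.

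Hoxd9 too was higher in LDP in all 4 rats in each subcluster, with no overlap. Its log2 differences were 1.00 ± 0.29 in OAF, 0.79 ± 0.20 in NP and 0.99 ± 0.33 in IAF. Hoxc8 was lower in LDP, with log2 differences of -0.90 ± 0.41 in NP and -1.20 ± 0.34 in IAF and no overlap. In OAF Hoxc8 held 32.1, 56.3, 52.1 and 72.1 CPM in CON and 22.1, 37.3, 41.5 and 33.6 CPM in LDP, a difference of -0.63 ± 0.32 with overlap, although it was lower in each rat.

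The other 3 members had overlapping groups in every subcluster. Their log2 differences ran from -0.22 to -0.35 for Hoxc9, from 0.03 to 0.13 for Hoxc10 and from -0.27 to 0.34 for Hoxd8. The highest Hoxd8 value was in NP, 0.34 ± 0.23 (SD, n = 4), where Hoxd8 was higher in LDP in 4 of 4 rats. There it held 1.35, 0.907, 1.68 and 1.25 CPM in CON and 1.71, 1.96, 2.55 and 1.43 CPM in LDP. The shares of NP, IAF and OAF cells varied between libraries. With the 3 subclusters weighted equally in each library, the log2 differences were 2.45 for Hoxd10, 0.93 for Hoxd9 and -0.81 for Hoxc8, within 1 SD of the values above.

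**Figure D3:**
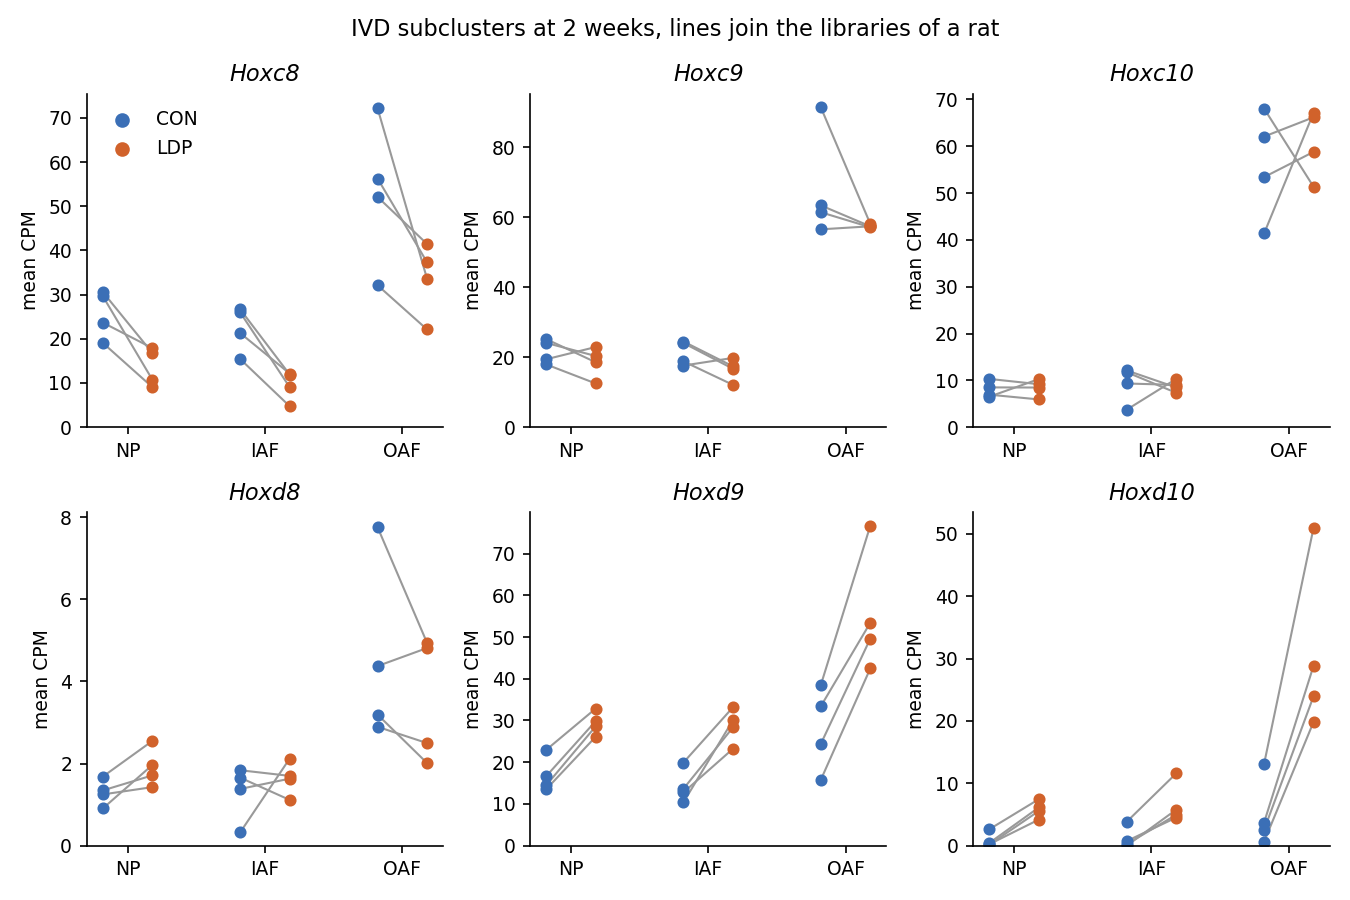
Mean CPM per cell of the 6 Hox genes in NP, IAF and OAF cells at 2 weeks, 1 point per library, with lines joining the CON and LDP libraries of each rat. OAF points lay above all NP and IAF points for Hoxc10 (41.4 to 68.1 CPM) and above those of the same library for Hoxd10, which reached 19.8 to 51.0 CPM in LDP.

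The balance of Hoxc8 and Hoxd10 followed the same order in every subcluster. Hoxd10 made up 4.18 ± 6.05% of their UMIs in NP, 5.58 ± 8.88% in IAF and 10.8 ± 13.6% in OAF of CON discs, and 33.9 ± 12.7%, 42.2 ± 19.8% and 53.3 ± 14.2% in LDP discs (SD, n = 4). The wide CON spread came with rat 1, whose OAF cells held 31.0% against 1.66 to 6.60% in rats 2 to 4, and whose NP and IAF cells held 13.2% and 18.8%. The 3 HoxD members made up a smaller part of all 6 in OAF than in NP, 18.5 ± 8.66% against 25.7 ± 8.16% in CON and 41.5 ± 8.67% against 48.9 ± 8.56% in LDP. Within a library the OAF share was the lower in 8 of 8, by 2.9 to 10.1 percentage points, and so was the Hoxd9 share of Hoxc9 and Hoxd9. The Hoxd10 share of Hoxc10 and Hoxd10 was lower in OAF in 7 of 8, that of Hoxd9 and Hoxd10 among these and Hoxc8 and Hoxc9 in 5 of 8, and the Hoxd10 share of Hoxc8 and Hoxd10 in 0 of 8. These counts are a description with no test.

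Which other cells carried the genes. A UMI of a disc gene can reach a cell of another class as free RNA in the suspension. Each class was therefore set against the number of UMIs it would hold if its Hox UMIs stood to those of Comp, a cartilage matrix gene, as they do in the IVD cells of the same library. In myeloid cells of 15 libraries the 6 genes held 16, 31, 10, 2, 14 and 9 UMIs (Hoxc8, Hoxc9, Hoxc10, Hoxd8, Hoxd9, Hoxd10), and this ratio gave 16.6, 18.4, 9.99, 1.61, 20.1 and 4.56. In lymphoid cells of 11 libraries they held 34, 17, 12, 2, 23 and 6 UMIs against 27.2, 24.7, 13.3, 2.40, 27.2 and 5.89. With Col2a1, another cartilage matrix gene, in place of Comp, the lymphoid numbers were 16.6, 16.1, 8.81, 1.54, 18.5 and 4.10 and the myeloid ones 13.7, 16.7, 9.16, 1.45, 19.4 and 4.62. No blood cell class exceeded the IVD level of any member in any library. In myeloid cells Hoxc9, Hoxc10, Hoxd8 and Hoxd10 lay above the number by either gene, Hoxc10 and Hoxd8 by less than 1 UMI. In lymphoid cells Hoxc8 and Hoxd10 did by Comp, the latter by less than 1 UMI, and all 6 did by Col2a1. At 2 weeks myeloid Hoxd10 was higher in LDP in 4 of 4 rats and the groups were apart. It held 0.147 ± 0.294 CPM in CON and 3.97 ± 3.82 CPM in LDP (SD, n = 4), on 1 and 7 UMIs. The Comp ratio gave 0.525 and 2.76 UMIs. The share of all genes apart in this class was not taken.

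Cells of the endothelial class differed by gene. Hoxd8 lay above the IVD level there in 11 of 12 libraries, against 2 of 12 for Hoxd10, 1 of 12 for Hoxc10 and 0 of 12 for Hoxc8, Hoxc9 and Hoxd9. It held 4.19, 5.56, 4.49 and 2.77 CPM in CON and 6.71, 4.11, 1.50 and 3.21 CPM in LDP at 2 weeks, and 2.00, 7.46, 6.72 and 8.34 CPM in LDP at 8 weeks, when CON had no endothelial class. Over the 12 libraries these cells held 61 Hoxd8 UMIs against 3.29 at the Comp ratio. Thinned to 1000 UMIs, 0.443% of CON endothelial cells at 2 weeks held a Hoxd8 UMI against 0.170% of IVD cells, and from all UMIs the shares were 0.906% and 0.940%. Myeloid cells of the same libraries held no Hoxd8 UMI in 429 cells. Median depth was 1685 to 3511 UMIs per endothelial cell and 4226 to 7640 per IVD cell.

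Endothelial Hoxd9 lay below the IVD level in 12 of 12 libraries but held 169 UMIs against 41.8 at the Comp ratio, and more than the ratio gave in each library. Its level was 4.08 to 9.14 CPM in CON and 8.00 to 18.9 CPM in LDP at 2 weeks, and the groups overlapped. The other members held 86 (Hoxc8), 58 (Hoxc9), 69 (Hoxc10) and 27 (Hoxd10) UMIs against 35.9, 41.0, 22.1 and 10.2. In CON at 2 weeks the HoxC members were close to the ratio, with 22, 16 and 6 UMIs against 20.9, 19.7 and 9.93. The endothelial HoxC UMIs above the ratio thus lay mostly in the LDP libraries, whereas Hoxd10 had 5 UMIs against 0.741 in CON as well. Endothelial Hoxc10 at 2 weeks was 0.228, 0, 0.602 and 1.64 CPM in CON rats 1 to 4 and 3.19, 2.43, 4.49 and 2.03 CPM in LDP, on 6 and 36 UMIs, whereas the IVD levels overlapped. These groups were apart, but on few UMIs, and the share of all genes apart in the endothelial class was not taken. At 2 weeks Hoxd9 made up 77.7 ± 3.83% of endothelial Hoxc9 and Hoxd9 UMIs in CON and 77.1 ± 4.54% in LDP. The 3 HoxD members made up 68.7 ± 10.9% of the UMIs of all 6 in CON and 57.7 ± 9.80% in LDP. These shares (SD, n = 4 each) rest on 68 and 115 UMIs and on 125 and 219 UMIs. Pericyte and smooth muscle markers in the same endothelial cells summed to 19.5 to 46.3 CPM in CON and 60.1 to 150 CPM in LDP, and endothelial markers to 5509 to 6120 and 5274 to 5424 CPM, and the part of either was not tested. The LDP library of rat 6 at 8 weeks rested on 55 endothelial cells. A Hoxd10 level of 20.2 CPM in that library came from 3 UMIs and a Hoxc10 level of 24.6 CPM from 10 UMIs.

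Cells that the authors left without a class carried HoxC genes as well in CON at 2 weeks. There 1593 such cells held 204 Hoxc8, 130 Hoxc9 and 182 Hoxc10 UMIs, against 31.3, 30.2 and 15.0 at the Comp ratio, but 2 Hoxd10 UMIs against 1.54. They also held 14 Hoxd8 UMIs against 1.81 and 39 Hoxd9 UMIs against 19.1. In LDP at 2 weeks the 3 HoxC genes were near the ratio, with 50, 63 and 44 UMIs against 42.5, 66.2 and 41.0. At 8 weeks they held 27, 19 and 11 UMIs against 25.8, 15.0 and 6.71 in CON. In LDP they held 34, 46 and 12 against 3.88, 4.74 and 2.48. There 1 library held 85 of the 103 UMIs of all 6 members, and rat 6 gave 628 of the 1182 cells. Hoxd8, Hoxd9 and Hoxd10 held 10, 33 and 0 UMIs against 1.15, 9.34 and 0.436 in CON at 8 weeks. In LDP at 8 weeks they held 3, 6 and 2 UMIs against 0.635, 6.24 and 2.17. In CON at 2 weeks the Hoxc10 level of these cells was 13.9 to 61.3 CPM over the 4 libraries, and the highest was rat 4. In the same cells 4 of 5 pericyte and smooth muscle markers were listed and summed to 1270 to 3603 CPM, and 3 of 4 Schwann cell markers summed to 344 to 1616 CPM, against 14.3 to 76.3 and 11.8 to 16.02 CPM in IVD cells. The unnamed cells of the other groups held other markers. In LDP at 2 weeks IVD markers summed to 6432 to 21497 CPM, against 2179 to 5357 CPM in CON, Schwann cell markers to 7.69 to 213 CPM and pericyte and smooth muscle markers to 22.0 to 402 CPM. At 8 weeks endothelial markers summed to 1903 to 4526 CPM in CON, and in LDP myeloid markers to 298 to 5786 CPM and Schwann cell markers to 56.8 to 6831 CPM. The unnamed cells were thus not the same mix in each group. The part of these markers in the Hox levels was not tested, and no cell type name is given to these cells.

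**Figure D4:**
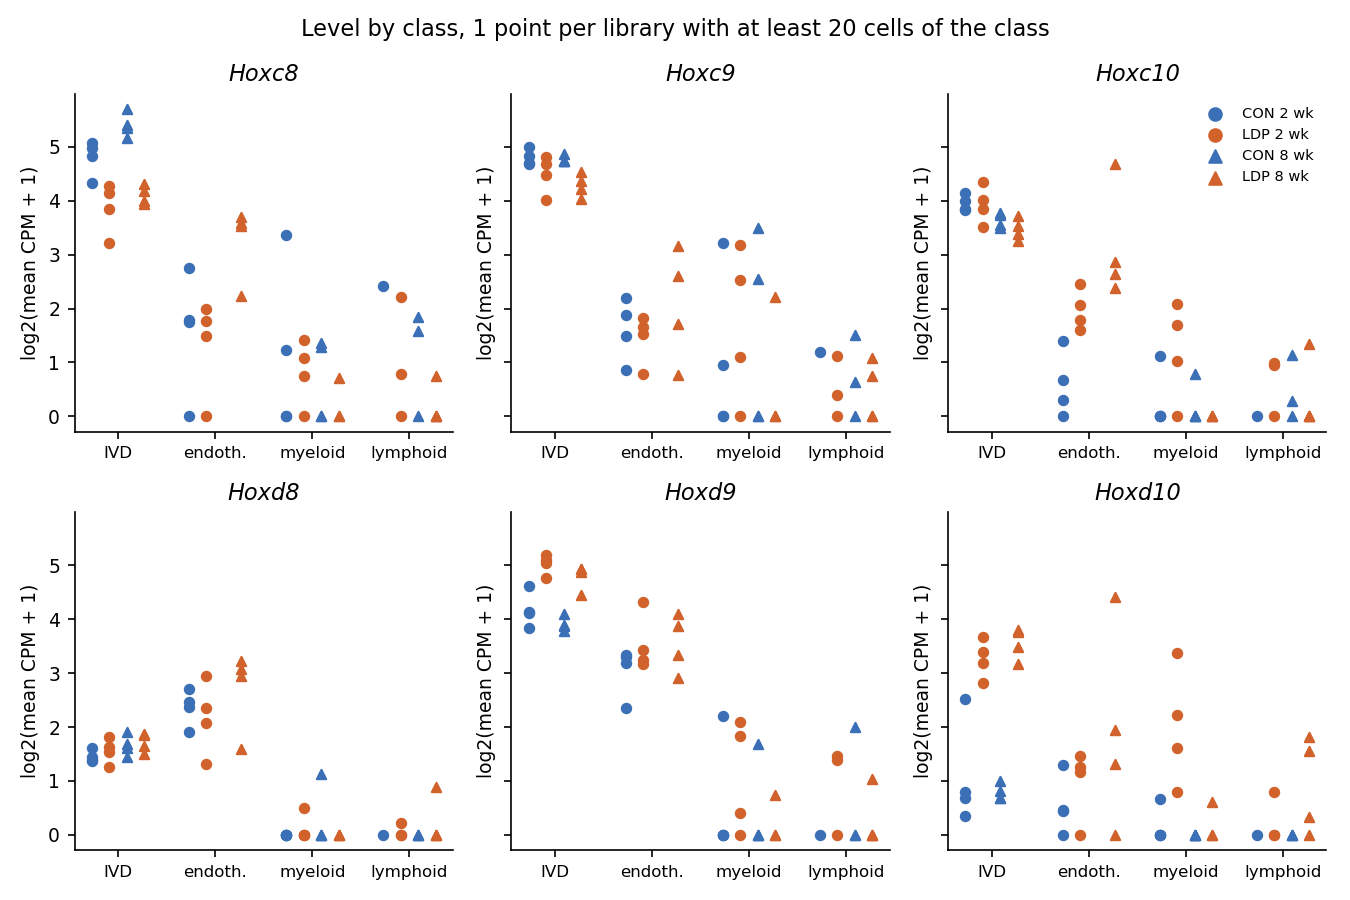
Level of the 6 Hox genes in each class as log2(mean CPM + 1), by group and time, 1 point per library with at least 20 cells of the class. IVD points lay above the endothelial, myeloid and lymphoid points of the same library for Hoxc8, Hoxc9 and Hoxd9, and endothelial points were higher than IVD points for Hoxd8 in 11 of 12 libraries.

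Change between 2 and 8 weeks. The mean over both libraries of a rat does not use the difference by which the members were picked, so 4 rats at 2 weeks could be tested against 4 at 8 weeks with limma across all 8355 genes. At adjusted p below 0.05, 10.7% of genes were higher and 15.5% lower at 8 weeks, so a change with time was common. Hoxc10 was the 1 member of the 5 tested that passed. Its rat means were 12.7 to 16.5 CPM at 2 weeks and 9.82 to 11.5 CPM at 8 weeks, with no overlap, and it fell by 0.39 on the log2 scale (SE 0.11, adjusted p = 0.0282, limma). The call was lost when libraries were centred on their median gene (adjusted p = 0.0621). It was also lost without rat 2 (0.0695), rat 3 (0.0519), rat 5 (0.0577) or rat 7 (0.0747). The summed OAF markers of the IVD class, given above, were lower at 8 weeks than at 2 weeks in both CON and LDP with no overlap, and OAF cells had the highest Hoxc10 level. Tendon and ligament markers ran from 261 to 673 CPM at 2 weeks and from 127 to 316 CPM at 8 weeks. Other marker sums are not compared between the times here, so a fall particular to OAF or tendon and ligament markers is not shown. The part of these markers in the fall of Hoxc10 was not tested.

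Hoxc8 rat means were 13.7 to 23.5 CPM at 2 weeks and 26.0 to 35.0 CPM at 8 weeks, and the log2 difference of 0.42 (SE 0.18) had an adjusted limma p of 0.106. It was 0.60 in CON libraries alone and 0.23 in LDP libraries alone. These are the terms of the difference by which the members were picked, so they are given with no test. The log2 differences of Hoxc9 (-0.12, SE 0.12, adjusted p = 0.472), Hoxd9 (-0.25, SE 0.14, adjusted p = 0.195) and Hoxd10 (-0.01, SE 0.27, adjusted p = 0.986) did not pass. Hoxd8, tested only without the filter on low values, differed by 0.18 (adjusted p = 0.246).

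Other Hox genes. Of 33 other Hox genes 17 were listed in at least 1 group, and 3 of them, Hoxb4, Hoxb7 and Hoxc6, passed the filter in IVD cells. None passed the LDP against CON test in limma, or in edgeR, at either time. At an unadjusted p below 0.05 there was 1 at 2 weeks and there were 2 at 8 weeks, beside 956 (11.4%) and 1662 (19.9%) of the 8355 genes. DESeq2 called Hoxc6 lower at both times, when it called 1.01% and 3.17% of the 8355 genes lower and 1.78% and 2.81% higher. Over the same genes limma called 0.12% higher and 0.0239% lower at 2 weeks and 0.192% in each direction at 8 weeks. Hoxc6, on the head side of Hoxc8, held 3.60 to 6.74 CPM in CON and 1.54 to 3.73 CPM in LDP at 2 weeks, and 4.04 to 5.98 CPM and 0.815 to 2.51 CPM at 8 weeks. Its log2 difference was -0.76 (limma adjusted p = 0.289, edgeR 0.219, DESeq2 0.0307) and -1.02 (limma 0.0792, edgeR 0.107, DESeq2 0.00503). Hoxb7 overlapped between CON and LDP at both times. Hoxb8 and Hoxb9, which did not pass the filter, overlapped at 2 weeks. At 8 weeks both were lower in LDP in 4 of 4 rats with no overlap. Their log2 differences there were -0.50 ± 0.18 and -0.31 ± 0.27 (SD, n = 4). Of the 8355 genes, 11% were apart in this direction at 8 weeks and 25.8% were lower in 4 of 4 rats.

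The genes towards the tail end were sparse. Hoxc11, beyond Hoxc10, was listed in the LDP tables alone, with a value above 0 in 159 of 51365 cells at 2 weeks and 217 of 28283 cells at 8 weeks. Its IVD level was 0.570 ± 0.230 CPM and 1.23 ± 0.39 CPM (SD, n = 4). A gene that is not listed has no value, which is not a value of 0, since the tables leave out genes found in few cells (the fewest in any listed gene were 29 to 53). Hoxa11 had a value above 0 in 49 CON and 186 LDP cells at 2 weeks and in 31 and 182 cells at 8 weeks, but its values did not convert to whole counts, so its level is uncertain. Between 2 and 8 weeks Hoxb7 rose by 0.59 (SE 0.11, adjusted p = 0.00546, limma) and Hoxb4 fell by 0.34 (SE 0.11, adjusted p = 0.0475, limma), the latter call lost when libraries were centred on their median gene (0.124).

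**Figure D5:**
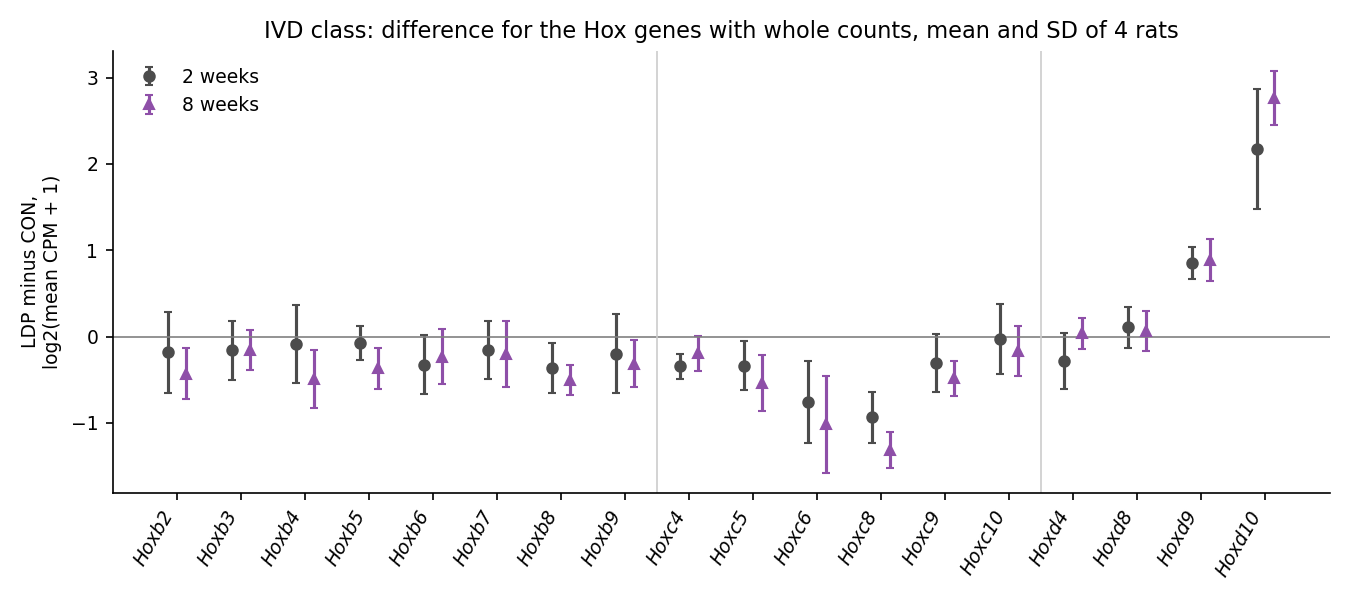
Mean log2 difference of LDP and CON in IVD cells for each Hox gene with whole counts that was listed in both CON and LDP. Genes are ordered by cluster and by number, with the SD over 4 rats, at 2 and 8 weeks. The HoxC values ran from -0.03 and -0.17 at Hoxc10 to -0.94 and -1.31 at Hoxc8. They were smaller in size than at Hoxc8 for Hoxc6 (-0.76 and -1.02), Hoxc5 (-0.34 and -0.54) and Hoxc4 (-0.34 and -0.20). Hoxd9 and Hoxd10 were the genes above the other HoxD values.

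Proteins that work with Hox factors or keep Hox genes on or off were also counted, as lists chosen by family. Of 9 genes for TALE cofactors (the Pbx, Meis and Pknox families that bind DNA beside Hox proteins) 4 passed the filter, and of 20 Polycomb and Trithorax genes, whose products maintain the silent or active state of Hox clusters, 18 did. None of either list was called by limma or edgeR for LDP against CON. At an unadjusted p below 0.05 there were 2 and 2 TALE genes and 1 and 3 Polycomb and Trithorax genes at 2 and 8 weeks, beside 11.4% and 19.9% of all genes. The log2 difference was below 0 for 17 of 18 Polycomb and Trithorax genes at 2 weeks and 18 of 18 at 8 weeks, with medians of -0.27 and -0.36. Over all 8355 genes it was below 0 for 63.1% and 69.1%, with medians of -0.08 and -0.14. With all classes together it was below 0 for 13 of 18 and 16 of 18 of these genes, with medians of -0.04 and -0.25 beside -0.05 and -0.09 over the 9001 genes tested there. In IVD cells some genes of the list were spread widely in LDP at 2 weeks. Suz12 held 14.2 to 47.7 CPM in LDP and 36.1 to 45.6 CPM in CON. Kdm6a held 14.9 to 38.6 CPM in LDP and 30.7 to 39.1 CPM in CON. The genes share the same libraries, so their signs are not independent. DESeq2 called Pknox1, a TALE gene, higher in LDP at 8 weeks, among 2.81% of all genes.

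Between 2 and 8 weeks 1 of the 4 TALE genes rose (Pknox1) and 1 fell (Pbx2) in limma at adjusted p below 0.05. Of the 18 Polycomb and Trithorax genes 3 fell, Jarid2 and Kmt2b among them, and the others did not pass, with 6 below an unadjusted p of 0.05. This stands beside 10.7% of all genes higher, 15.5% lower and 40.5% below an unadjusted p of 0.05. Of 12 axial patterning genes 3 passed the filter and of 11 notochord genes 5 did, and limma and edgeR called none for LDP against CON, with 1 and 0 at 2 weeks and 1 and 2 at 8 weeks below an unadjusted p of 0.05. DESeq2 called Cd24, a notochord and NP surface marker, higher in LDP at 8 weeks. Between 2 and 8 weeks limma called Tbx18 higher among the 3 axial patterning genes and Foxa2 and Krt18 higher among the 5 notochord genes.

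Genes with a like pattern. Over the 16 libraries, with each rat centred on its own mean, which leaves 8 mirrored pairs, Hoxd9 and Hoxd10 had a Pearson correlation of 0.99 in IVD cells and Hoxc8 and Hoxc9 of 0.92. Hoxc8 and Hoxd10 had -0.94, and Hoxc10 and Hoxd10 -0.19. These values share library and rat and describe the same LDP and CON difference, so no test goes with them. The genes most like the mean profile of the members were Tarbp2 (0.91), Acot13 (0.88), Olfml3 (0.87), Synj2bp (0.87) and Wbp4 (0.86). As the members moved in opposite directions, that mean followed mostly Hoxc10. The genes most like Hoxd10 alone were Anxa1 (0.99) and AABR07065091.1 (0.99), and those most like Hoxc8 alone were Gna13 (0.99) and N4bp1 (0.98).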

How the data were processed

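Discs of 8 rats gave 16 10x Genomics 3′ libraries, which the authors processed in Partek Flow on the rn6 build (submitters' processing notes). The aligner, the annotation and whether strand was used in counting are not given in the sources used here. In RefSeq GRCr8 no other gene overlaps the 6 members. Cells were filtered on mitochondrial share, genes and UMIs by the authors, who clustered each of the 4 groups apart and named the clusters. Doublets and free RNA are not mentioned in the sources used here, and no doublet caller was run. The deposited gene values are log2(CPM + 1) per cell. The cell totals, as deposited, are expected counts (not whole in most cells), summed by the authors over listed genes. The deposited percentages of mitochondrial and ribosomal reads were not used.

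Each value was turned back into a count with the cell total. Within 0.02 of a whole number were 99.43% of all values above 0 and 100% of the 60432 values of the members, and these counts are called UMIs. The CPM of the cells of a class was averaged per library. The subclusters at 2 weeks carry numbers in the tables and were given the names NP, IAF and OAF by matching their cell numbers to those in the study. A class needed 20 cells in a library. For shares of cells with a UMI each cell was thinned to 1000 UMIs by the exact expectation, and 2064 cells of all 149272 under 1000 UMIs were left out.

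LDP was compared with CON on log2(mean CPM + 1) with limma 3.58.1 (R 4.3.3) over all 16 libraries with the rat as block, and 8 with 2 weeks on rat means, with Benjamini-Hochberg adjustment over all genes that reached 5 CPM in 4 libraries. On this scale the change of low genes is understated. CON and LDP libraries are paired because they come from 1 animal. The 2 libraries of a rat were matched by the number in the sample titles (such as Control 1 and Stab 1). The correlation of the deviations of both libraries of a rat from their group means ran from -0.194 to 0.512 over 8355 genes. edgeR 4.0.16 and DESeq2 1.42.0 were run on the summed counts as alternatives. The fits were tested on simulated summed counts, and the outcome is not given here. In that test limma was given pooled CPM, so its fit on mean CPM per cell was not tested. The 6 members and all gene lists were chosen with earlier results of these data known, and the genes named are the members, other Hox genes that passed a test or lie in groups 7 to 11, list genes that passed a test, and the genes most like the members. Hoxc6, Hoxb4 of the filtered Hox genes, Hoxb8, Hoxb9, the genes called by DESeq2 alone, Suz12 and Kdm6a were named after their values were seen. Intervals and limits for a count of 0 (3 counts) cover counting error only. A result for 1 gene of the lists is not reported here.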

Additional observations from a re-analysis of the deposited data

Results flagged for a closer look

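In 24 groups of 4 libraries (6 genes in CON and LDP at 2 times, IVD class), 3 held a library whose gap to its nearest neighbour took up more of the range than the Dixon limit allows, where chance alone flags about 5% of groups. Hoxd10 in CON at 2 weeks was highest in rat 1, at 4.77 CPM with the nearest library at 0.743 CPM (gap over range 0.897). This library was intermediate between CON and LDP for Hoxc8, Hoxd9 and Hoxd10.

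Hoxc9 in CON at 8 weeks was highest in rat 7, at 28.2 CPM with the nearest library at 25.7 CPM (0.930), and the other libraries held 25.6 to 25.7 CPM.

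Hoxd9 in LDP at 8 weeks was lowest in rat 7, at 20.9 CPM with the nearest library at 28.3 CPM (0.855), and it still lay above the highest CON library, at 16.2 CPM.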

How the results depend on the processing

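No result changed direction past its threshold. The LDP minus CON difference of each member stayed within 1 SD of its value under pooled CPM, centring, all cells and equal weights of the subclusters, and the pseudocount of 0.1 moved only Hoxd10, to 3.08 at 2 weeks and 3.72 at 8 weeks. Leaving out 1 rat gave 2.00 to 2.52 for Hoxd10, 0.81 to 0.95 for Hoxd9 and -1.06 to -0.84 for Hoxc8 at 2 weeks. Hoxc10 and Hoxd8, whose differences were below their SD, changed sign under some of these settings.

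Counts of genes called over the whole table moved more, and the cause was not tested. In all cells limma called 0 genes at 2 weeks (826 at an unadjusted p below 0.05), 1 when centred or with pooled CPM and 0 to 1 with 1 rat left out, and DESeq2 called 141. At 8 weeks limma called 1, 5 with pooled CPM, 3 with no replicate block and 0 to 1 with 1 rat left out, edgeR called 5 and DESeq2 199. In the IVD class limma called 12 at 2 weeks, 23 when centred, 2 with no replicate block and 0 to 5 with 1 rat left out, edgeR called 19 and DESeq2 233. At 8 weeks limma called 32 and DESeq2 500, and leaving out 1 rat gave 1 to 477, the highest without rat 4. With no replicate block, the fit without pairing by rat, the count was 39 at 8 weeks. For 8 against 2 weeks limma called 2184, 382 in LDP libraries alone and 1141 to 2650 with 1 rat left out. Shares of cells with a UMI moved past 1 SD in 88 of 120 values at 2000 UMIs per cell and in 110 of 120 with all UMIs, since more UMIs find a gene in more cells.

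Depth limits the sparse members most: Hoxd10 rested on 17 to 192 UMIs per CON library of IVD cells at 2 weeks and Hoxd8 did not pass the filter on low values. With Col2a1 in place of Comp, chosen after seeing the data, the lymphoid numbers moved most.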
